A study of Mus musculus with 6 samples.

Results

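The 9 genes described here mark epithelial cells, and were read from RNA-seq of inguinal fat. They are *Epcam*, *Cdh1*, *Krt5*, *Krt14*, *Krt8*, *Krt18*, *Cldn3*, *Cldn7* and *Trp63*, found by their symbols among the 55573 genes listed in the deposited values. The set was chosen by the measured *Epcam* values in this same comparison of mutant with Wt mice, in which Wt mouse 1 stood apart. For that reason the levels and genotype differences of these genes are given as a description, with Wt mouse 1 shown separately, and no test of the set is made. Of the 9 genes, 8 passed the filter on low values and *Cldn7* did not.

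The tissue was inguinal white fat, which lies under the skin, from 3 mutant and 3 Wt male C57BL/6NTac mice, 3 months old, on regular chow and without treatment, with 1 library for each mouse. Mutant mice carried THRA K283Q/K288R, a global homozygous knock-in made in embryonic stem cells of the same strain. It replaces 2 lysines of thyroid hormone receptor alpha. The small protein SUMO is attached at K283, and at K288 as an alternate site when K283 is blocked. A further SUMO site of the receptor was not mutated. Wt mice carried the unchanged receptor. Each value is a normalized CPM, that is, reads relative to the size of the library, with a further scaling factor for each mouse, and 19607423 to 24228381 reads on genes stood behind each library.

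Epithelial cells line ducts, glands and the body surface. Neighbouring cells are held together by E-cadherin and EpCAM and sealed by claudins, and their shape is carried by keratins that assemble as pairs of a type II and a type I chain. Simple epithelium and the luminal cells of glands use keratins 8 and 18, whereas the basal layer of skin and glands uses keratins 5 and 14 under the transcription factor p63. In mice the inguinal fat pad lies under the skin, and in females it is also the stroma into which the mammary epithelium grows. The mice here were male.

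All 6 libraries had high levels of adipocyte genes, with the adipokine *Adipoq* at 1332 to 2219, and 0 of the 6 adipocyte genes listed passed the test between the genotypes. Mutant mouse 1 stood apart for lymphocytes. Its summed value over 5 lymphocyte genes was 2.88, against 306 and 467 in mutant mice 2 and 3 and 237 to 555 in Wt mice. Of 8 genes listed for mesothelium, the lining of body cavities, 7 passed the test as higher in mutant mice (limma, FDR 0.05). Of all genes tested, 5.50% did so. The other, *Muc16*, was at 0.0973 to 1.21 in Wt mice and 1.71 to 3.04 in mutant mice. The summed value of the 8 mesothelial genes was 35.5 to 70.0 in mutant mice and 2.09 to 5.13 in Wt mice. Bulk RNA cannot tell fewer cells of a type from less RNA per cell.

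The bases upstream of the start of *Epcam*, *Krt5* and *Krt18* are shown first, since these genes stand for the 3 courses over the mice described next, adhesion, basal keratin and simple keratin. Sequences are those of RefSeq on GRCm38.p6, written 5′ to 3′ on the strand of the gene. Those of *Epcam* and *Krt5* end 1 base before the RefSeq start, and that of *Krt18* was trimmed to the 214 bases upstream of the GENCODE start, which lies before the RefSeq start. Positions are counted from the RefSeq start. Capitals mark 2 motifs on either strand, the E-box CACCTG (or CAGGTG), which the repressors Snail, Slug and the ZEB proteins are known to bind, and the GC box GGGCGG (or CCGCCC).
Epcam, chr17:87635729-87635978, plus strand: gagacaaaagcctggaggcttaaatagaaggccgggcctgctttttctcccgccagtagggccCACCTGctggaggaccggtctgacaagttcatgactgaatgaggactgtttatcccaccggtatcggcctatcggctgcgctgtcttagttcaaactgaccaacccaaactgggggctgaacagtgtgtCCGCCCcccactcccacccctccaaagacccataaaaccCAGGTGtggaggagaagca
Krt5, chr15:101712906-101713155, minus strand: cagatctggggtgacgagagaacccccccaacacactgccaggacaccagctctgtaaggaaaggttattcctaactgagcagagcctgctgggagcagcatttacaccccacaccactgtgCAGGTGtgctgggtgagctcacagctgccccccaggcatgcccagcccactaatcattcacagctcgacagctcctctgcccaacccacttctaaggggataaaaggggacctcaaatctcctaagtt
Krt18, chr15:102027966-102028179, plus strand: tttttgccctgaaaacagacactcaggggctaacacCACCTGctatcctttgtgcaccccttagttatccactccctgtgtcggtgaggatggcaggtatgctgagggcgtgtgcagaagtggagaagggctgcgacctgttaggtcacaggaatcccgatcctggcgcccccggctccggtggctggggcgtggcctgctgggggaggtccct

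RefSeq windows were found for 7 of the 9 genes, and none was used for *Cdh1* and *Trp63*. Within the 250 bases upstream of each RefSeq start, CACCTG was present for 5 of 7 genes, *Epcam*, *Krt5*, *Krt8*, *Krt18* and *Cldn7*, and in 17.2% of 32851 mouse windows of the same length. *Cldn7* had 2 windows, and all its matches were in window 2. A gene was counted if any of its windows held the motif, whereas the shares over all mouse windows count each window singly. *Epcam* had 2 matches, at -187 to -182 and at -19 to -14. The GC box was present for 3 of 7 genes, *Epcam*, *Cldn3* and *Cldn7*, and in 32.7% of all windows. Neither AACCGGTT, a site for grainyhead factors, nor TATAAA was found in the 7 genes, and these letters occurred in 0.116% and 12.4% of all windows. The match of *Krt8* and those of *Cldn7* lay inside the span that GENCODE gives the gene. The whole window of *Krt14*, in which no motif was found, lay inside that span as well. These are matches of letters and not measured binding.

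*Epcam* (ENSMUSG00000045394, chromosome 17, 87635979 to 87651129, plus strand) encodes a cell adhesion molecule of the basolateral membrane of epithelial cells. It was at 14.5, 2.09 and 2.36 in Wt mice 1, 2 and 3, versus 0.786, 0.987 and 1.22 in mutant mice 1, 2 and 3, the order used throughout. Wt mouse 1 was far above the other mice, and every mutant mouse was below every Wt mouse. The mean was 6.30 ± 7.06 in Wt mice and 0.997 ± 0.215 in mutant mice (SD, n = 3 each). Wt mouse 1 held 66.0% of the summed value of the 6 mice. The ratio of the Wt to the mutant mean was 6.32 with all mice and 2.23 without Wt mouse 1.

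The reads behind these values were 345, 43 and 56 for Wt and 15, 22 and 26 for mutant mice. The exact Poisson interval was 31.1 to 57.9 reads for Wt mouse 2 and 17.0 to 38.1 for mutant mouse 3, at a confidence level of 95% and for counting error only. These intervals, for the nearest mice of the 2 genotypes, overlap, and overlap alone does not decide whether the 2 counts differ. On the scale of log2(normalized CPM + 0.5), which understates changes of low genes, the fitted difference of mutant minus Wt was -1.69 (SE 0.66), and -0.87 (SE 0.20) without Wt mouse 1. *Epcam* was the only gene of the 8 tested whose genotypes did not overlap. Among all genes tested, every mutant mouse was below every Wt mouse for 15.7% and above for 14.9%. As *Epcam* gave rise to the set, nothing is read from this.

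EpCAM is also carried by Langerhans cells and some dendritic cells. The summed value of 5 genes of these cells was 51.0 to 93.5 in Wt mice and 27.9 to 52.1 in mutant mice, lowest in mutant mouse 1, and 0 of the 5 passed the test (limma, 0 also at an unadjusted p under 0.05). *Cd207*, which encodes langerin of Langerhans cells and was named after its values were seen, was at 0.461, 0.340 and 1.60 in Wt mice versus 0, 0.673 and 0.421 in mutant mice. Wt mouse 1, with the highest *Epcam*, had the lowest sum of the Wt mice. The part of these cells in the *Epcam* values was not tested.

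**Figure D1:**
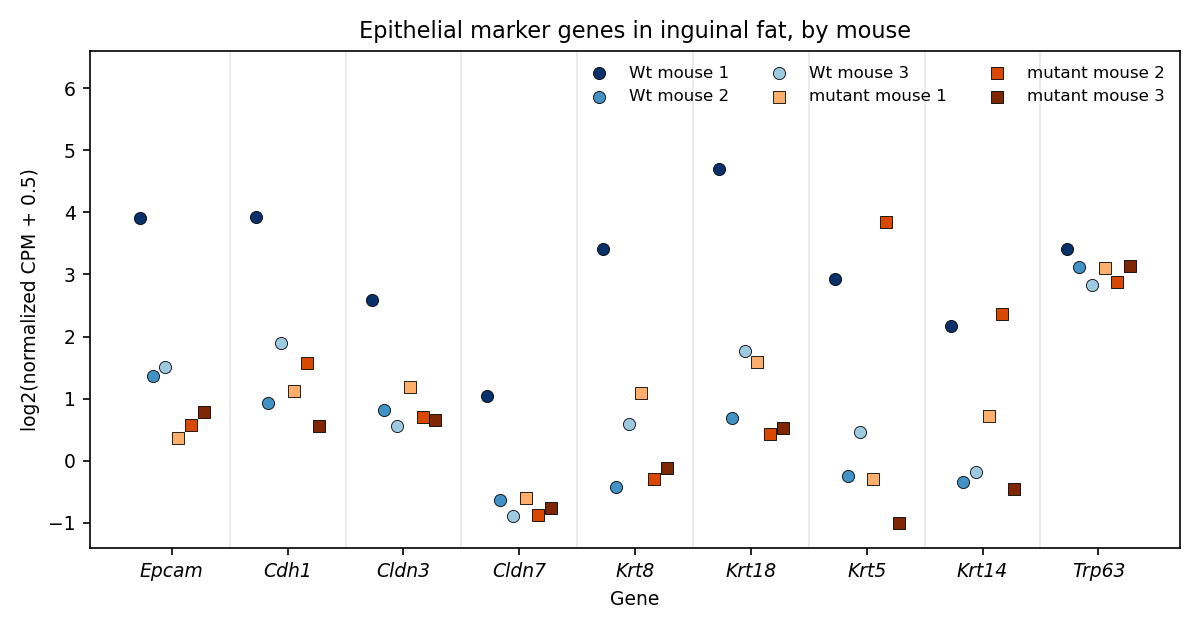
The 9 epithelial marker genes (horizontal axis) in each mouse, as log2(normalized CPM + 0.5) on the vertical axis, with circles for Wt mice and squares for mutant mice. Wt mouse 1 is highest for *Epcam*, *Cdh1*, *Cldn3*, *Cldn7*, *Krt8*, *Krt18* and *Trp63*, mutant mouse 2 is highest for *Krt5* and *Krt14*, and the 6 points of *Trp63* lie close together.

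*Cdh1* (ENSMUSG00000000303, chromosome 8, 106603351 to 106670246, plus strand) encodes E-cadherin, the calcium-dependent adhesion protein of adherens junctions. It was at 14.7, 1.41 and 3.24 in Wt mice versus 1.68, 2.47 and 0.983 in mutant mice. Wt mouse 1 was 6.33 times the mean of Wt mice 2 and 3, close to the 6.5 times of *Epcam*. Among the other 5 mice the genotypes overlapped, since Wt mouse 2 lay below mutant mice 1 and 2. The fitted difference was -1.17 (SE 0.74), and -0.33 without Wt mouse 1. The level per kb of exon of *Epcam* was 2.05 times that of *Cdh1* in Wt mouse 1, 3.09 times in Wt mouse 2 and 1.52 times in Wt mouse 3. In mutant mice this within-mouse ratio was 0.977, 0.834 and 2.58, so mutant mouse 3 lay within the Wt range and the other mutant mice below it.

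Claudins form the strands of tight junctions. *Cldn3* (ENSMUSG00000070473, chromosome 5, 134986214 to 134987472, plus strand), a gene with 1 exon, was at 5.49, 1.26 and 0.968 in Wt mice versus 1.78, 1.12 and 1.08 in mutant mice. Only Wt mouse 1 stood out, and the other 5 mice spanned 0.968 to 1.78. The fitted difference went from -0.47 (SE 0.53) with all mice to 0.16 without Wt mouse 1. *Cldn7* (ENSMUSG00000018569, chromosome 11, 69964779 to 69967885, plus strand) had 37 reads in Wt mouse 1, 3 and 1 reads in Wt mice 2 and 3, and 3, 1 and 2 reads in mutant mice. The 5 mice other than Wt mouse 1 were thus at or under the floor of 3 reads, which stands for a normalized CPM between 0.126 and 0.157 in these libraries. The value in Wt mouse 1 was 1.55, and no genotype difference of *Cldn7* was fitted.

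Among the 8 tested genes of the set, the simple keratins were those in which Wt mouse 1 stood out most over Wt mice 2 and 3. The untested *Cldn7*, with 1 and 3 reads in those mice, had a like ratio of 16.5. *Krt18* (ENSMUSG00000023043, chromosome 15, 102028180 to 102032027, plus strand), the type I chain, was at 25.5, 1.12 and 2.90 in Wt mice versus 2.52, 0.853 and 0.936 in mutant mice. *Krt8* (ENSMUSG00000049382, chromosome 15, 101996698 to 102004482, minus strand), its type II partner and neighbour on the chromosome, was at 10.1, 0.243 and 1.01 in Wt mice versus 1.62, 0.314 and 0.421 in mutant mice. Both genes had the order Wt mouse 1, then Wt mouse 3 and mutant mouse 1, then the other 3 mice. Wt mouse 1 was 12.7 times the mean of Wt mice 2 and 3 for *Krt18* and 16.2 times for *Krt8*.

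The reads of *Krt8* in Wt mouse 2 and mutant mice 2 and 3 were 5, 7 and 9, and differences among these mice were not detectable at this depth. The listed pseudogene *Krt8-ps* had 1 read in Wt mouse 1 and 0 in the other mice. Within each mouse the level per kb of *Krt8* was 0.160 to 0.474 of that of *Krt18*, and Wt mouse 1, at 0.292, was inside that range. The fitted difference was -1.54 (SE 0.99) for *Krt18* and -0.97 (SE 0.97) for *Krt8*, and without Wt mouse 1 it was -0.38 and 0.14. Keratins 8 and 18 are also made by mesothelium, whose genes were higher in mutant mice as given above, and the part of mesothelial cells in these values was not tested.

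The basal keratins had a second high mouse, of the other genotype. *Krt5* (ENSMUSG00000061527, chromosome 15, 101707070 to 101712898, minus strand), the type II chain of basal cells, was at 7.08, 0.340 and 0.883 in Wt mice versus 0.314, 13.8 and 0 in mutant mice. Mutant mouse 2, with 308 reads, was above Wt mouse 1, with 169 reads. Mutant mouse 3 had 0 reads, under the floor of 3 reads, which stands for 0.140 in that mouse. *Krt14* (ENSMUSG00000045545, chromosome 11, 100203162 to 100207548, minus strand), the type I partner on another chromosome, was at 3.98, 0.292 and 0.379 in Wt mice versus 1.15, 4.62 and 0.234 in mutant mice. Again mutant mouse 2 and Wt mouse 1 were the 2 highest, with 103 and 95 reads against 5 to 22 in the other 4 mice.

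The genotype difference of the basal keratins turned with the mouse that was left out. For *Krt5* it was -0.20 (SE 1.41) with all mice, 0.74 without Wt mouse 1 and -1.69 without mutant mouse 2. For *Krt14* it was 0.33 (SE 0.91), 1.14 and -0.41 in the same order. The spread within each genotype exceeded the difference between the means, with 2.77 ± 3.74 in Wt and 4.71 ± 7.89 in mutant mice for *Krt5*, and 1.55 ± 2.105 against 2.003 ± 2.31 for *Krt14* (SD, n = 3 each).

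Summed per kb of exon, the simple pair *Krt8* and *Krt18* reached 22.9 in Wt mouse 1, 0.903 and 2.54 in Wt mice 2 and 3, and 2.58, 0.754 and 0.866 for the mutants. The basal pair *Krt5* and *Krt14* summed to 5.49, 0.321 and 0.618 for Wt and to 0.799, 8.92 and 0.133 for mutant mice. The ratio of the basal to the simple pair separated the high mice. It was 0.240 in Wt mouse 1, inside the 0.154 to 0.356 of the other mice apart from mutant mouse 2, and 11.8 in mutant mouse 2. Of the summed level of the 4 keratins, the basal pair made up 19.3% in Wt mouse 1 and 92.2% in mutant mouse 2. Wt mouse 1 therefore had more of both pairs in about the proportion of the other mice, and mutant mouse 2 had more of the basal pair with a simple pair among the lowest.

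**Figure D2:**
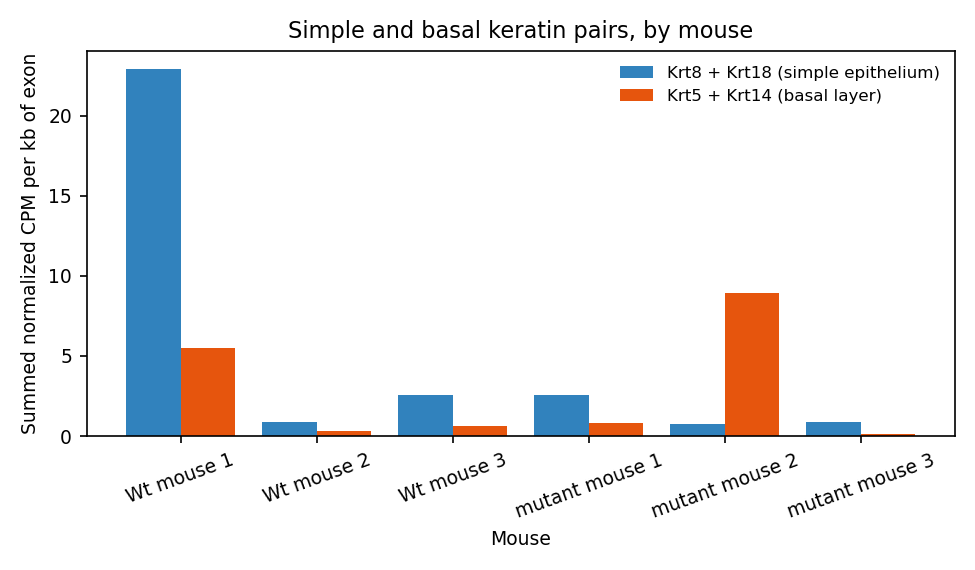
Bars give, for each mouse on the horizontal axis, the summed normalized CPM per kb of exon of the simple pair *Krt8* and *Krt18* and of the basal pair *Krt5* and *Krt14*, on an axis that starts at 0. The simple pair is tallest in Wt mouse 1, at 22.9, and the basal pair is tallest in mutant mouse 2, at 8.92.

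*Trp63* (ENSMUSG00000022510, chromosome 16, 25683763 to 25892102, plus strand) encodes p63, which maintains basal cells of stratified epithelium. It was at 10.1, 8.17 and 6.61 in Wt mice versus 8.07, 6.82 and 8.33 in mutant mice, so the genotypes overlapped. The highest mouse was 1.53 times the lowest, and the coefficient of variation over the 6 mice was 15.8%, against 90.1% to 176% for the other 8 genes. Reads were 152 to 242 per mouse. The fitted difference was -0.08 (SE 0.18). Mutant mouse 2, with the most *Krt5* and *Krt14*, had the second lowest *Trp63*.

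The order of levels per kb differed between the mice. In Wt mouse 1 it ran from *Krt18* (17.7) through *Epcam* (6.59), *Krt8* (5.18), *Cldn3* (4.36), *Krt5* (3.223), *Cdh1* (3.215) and *Krt14* (2.26) to *Trp63* (1.21) and *Cldn7* (0.796). *Krt5* and *Cdh1* had 169 and 351 reads there and did not differ beyond counting error. In Wt mouse 2 the highest were *Cldn3* (1.004), *Trp63* (0.974), *Epcam* (0.953) and *Krt18* (0.778), from 23 to 168 reads, and these neighbours were not told apart at this depth. In mutant mouse 2 the order was led by *Krt5* (6.29) and *Krt14* (2.63), ahead of *Cldn3* (0.891) and *Trp63* (0.813). *Trp63* thus ranked near the bottom in Wt mouse 1 and among the highest in Wt mouse 2 with little change of its own level.

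Across all 8 genes tested, 0 passed an FDR of 0.05 by limma with Benjamini-Hochberg adjustment over 16868 genes. An unadjusted p under 0.05 by limma was found for 1, *Epcam*, and for 4075 of the 16868 genes. Of all genes tested, 8.11% passed (5.50% higher and 2.61% lower in mutant mice), and nothing is read from the count, since the rule drew on this contrast. On the reads themselves, edgeR's quasi-likelihood fit called 0. By DESeq2's Wald test 1 passed, *Epcam*, with an adjusted p of 0.00621, and DESeq2 gave no p for *Krt5*. The fitted difference was below 0 for 7 of 8 genes, with a median of -0.72 beside -0.05 over all genes. Without Wt mouse 1 the median was 0.10. Without Wt mouse 1 and mutant mouse 2, which left 6 of the genes past the filter, 0 passed by limma (1, *Epcam*, at an unadjusted p under 0.05), and 0.409% of all genes did.

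**Figure D3:**
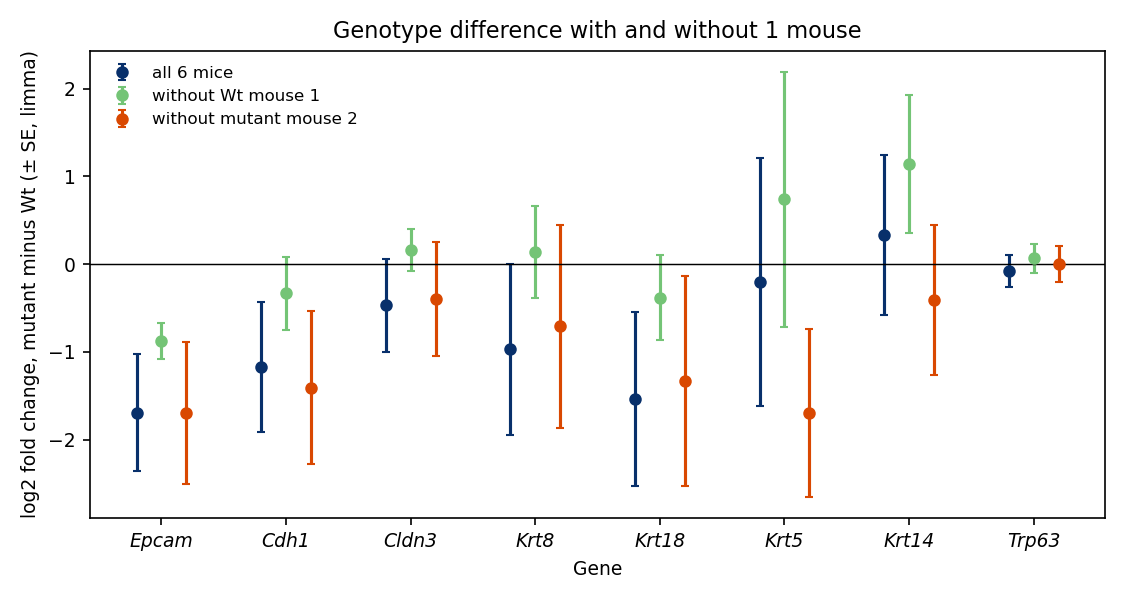
Fitted genotype difference (log2 fold change, mutant minus Wt, points, with ± SE as bars, limma) on the vertical axis for the 8 genes tested, with all 6 mice, without Wt mouse 1 and without mutant mouse 2. *Epcam* stays below 0 in all 3 fits, at -1.69, -0.87 and -1.69, whereas *Krt5* and *Krt14* lie above 0 without Wt mouse 1 and below 0 without mutant mouse 2.

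The excess of Wt mouse 1 was then measured for every gene, as its log2(normalized CPM + 0.5) minus the mean of Wt mice 2 and 3. It exceeded 2 for 6 of the 8 genes, *Krt18* (3.47), *Krt8* (3.33), *Krt5* (2.81), *Cdh1* (2.51), *Epcam* (2.46) and *Krt14* (2.43), and was 1.90 for *Cldn3* and 0.44 for *Trp63*. Among all 16868 genes tested, 28 genes (0.166%) exceeded 2. The set makes up 21.4% of those 28 genes, and they make up 75.0% of the set's tested genes. The median excess was 2.48 over the set and 0.01 over all genes. Wt mouse 1 was the highest Wt mouse for 8 of 8 genes, as for 40.3% of all genes, and the highest of the 6 mice for 6 of 8, as for 16.3% of all genes. As the set was drawn up with Wt mouse 1 in view, this is a description. The count of 28 leaves out genes below the filter, such as *Wfdc18* (3.25) and *Elf5* (2.61).

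The 22 other genes of those 28 were named after their values were seen. Of them, 10 are on epithelial lists, among them the milk proteins *Ltf* (3.83) and *Csn3* (3.27), the keratins *Krt19* (3.12) and *Krt7* (2.35), the luminal transcription factor *Foxa1* (3.02), the claudin *Cldn4* (2.89), the desmosome genes *Dsp* (2.54) and *Pkp1* (2.16), the tight junction gene *Cgn* (2.25) and the splicing regulator *Esrp1* (2.16). The 12 on no list were led by *Fcgbp* (3.73), which encodes a protein of mucus, the membrane protease *Tmprss2* (3.25), *Prom2* (3.20), *Clca3a2* (2.96), the transcription factor *Tfap2b* (2.91) and the proton pump subunit *Atp6v1b1* (2.90). The lowest of the 28 was *Cited1* (2.08). The excess exceeded 2 for 10 of the 46 other epithelial genes tested, and its median over them was 0.48. For the epithelial surface, protease and trafficking genes it exceeded 2 for 0 of 8. The highest genes of 4 epithelial lists were well below 2, *Jup* (0.25), *Itga6* (0.21), *F11r* (0.10) and *Cd24a* (-0.09).

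For mutant mouse 2 a stricter measure was used, its log2 value minus the higher of mutant mice 1 and 3, since lymphocyte genes were near 0 in mutant mouse 1. It exceeded 2 for 5 genes (0.0296% of those tested), again named after their values were seen. They were *Krt5* (4.14), *Dsp* (3.48), which links keratins to desmosomes, *Krt10* (3.18), the type I keratin of suprabasal epidermis, *Perp* (2.19), a desmosome protein, and *Col17a1* (2.05), a collagen of hemidesmosomes. *Krt10* was at 2.15 to 2.51 in Wt mice, 2.93 and 2.29 in mutant mice 1 and 3, and 30.6 in mutant mouse 2. In contrast to *Krt5*, *Krt10* was not raised in Wt mouse 1. Set against the mean of mutant mice 1 and 3, the measure used for Wt mouse 1, 67 genes (0.397%) exceeded 2 in mutant mouse 2, among them 4 of the 5 lymphocyte genes, *Krt5* (4.49) and *Krt14* (2.22). Both counts leave out genes below the filter, such as *Krt15* (4.13), *Krt1* (3.78) and *Lor* (3.10) by the stricter measure.

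The genes most like *Epcam* over the 6 mice were found by the root mean square difference of their centred log2 values. Nearest were *Ptn* (0.255), a heparin-binding growth factor, *Cldn4* (0.384) and *Foxa1* (0.442), followed by *C130021I20Rik*, *Clca3a2*, *Cited1*, *Irx1*, *Atp6v1b1*, *Tfap2b* and *Cdcp1* (0.465 to 0.573). *Ptn* was at 36.1, 5.35 and 8.46 in Wt mice versus 4.03, 3.95 and 3.27 in mutant mice, with a high Wt mouse 1 and every mutant mouse below every Wt mouse. As *Ptn* was picked for its likeness to *Epcam* over these mice, nothing is read from this. Of the set, *Cdh1* was nearest, at 0.513 and rank 9 among the genes tested, before *Krt18* (rank 18), *Cldn3* (rank 30) and *Krt8* (rank 44). *Trp63*, *Krt14* and *Krt5* were at ranks 1660, 14053 and 16200.

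Other genes of epithelium were taken from 8 lists with 74 genes, of which 46 passed the filter. By limma 1 was higher and 0 were lower in mutant mice (10 at an unadjusted p under 0.05, edgeR 1, DESeq2 6). DESeq2 gave no adjusted p for 6 of all genes tested, *Krt5*, *Krt19* and *Foxa1* among them. Of all genes, 8.11% passed by limma, and 4075 of 16868 had an unadjusted p under 0.05. The 1 gene was *Sbsn*, which encodes suprabasin of differentiating epidermis, at 28.3, 26.8 and 25.2 in Wt mice versus 54.8, 53.4 and 36.5 in mutant mice. Its difference was 0.82 (SE 0.17, adjusted p = 0.0345 by limma), and the call was lost when any mouse other than mutant mouse 3 was left out (adjusted p of 0.063 to 0.125 by limma), with a difference of 0.71 to 0.86 in those fits and of 0.86 without Wt mouse 1. Wt mouse 1 did not stand apart for *Sbsn*.

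Among the mammary secretory genes, 3 of 9 passed the filter and 0 the FDR. *Ltf*, which encodes lactoferrin, was at 46.6, 2.33 and 3.37 in Wt mice versus 0.786, 0.314 and 0.187 in mutant mice, and the genotypes did not overlap. Without Wt mouse 1, *Ltf* was lower in mutant mice by limma (difference -1.89, SE 0.33, adjusted p = 0.0393). *Csn3*, which encodes kappa-casein, was at 19.0, 0.827 and 2.57 in Wt mice versus 1.15, 0.0449 and 0 in mutant mice. The third gene tested, *Prlr*, had another course, at 33.7, 8.51 and 8.62 in Wt mice versus 16.8, 13.2 and 8.94 in mutant mice. Every mutant mouse was above Wt mice 2 and 3 for *Prlr*, and its difference was -0.11 (SE 0.55). *Wfdc18*, below the filter, was at 8.84 in Wt mouse 1 and at 0.715 or lower in the others. Other milk protein genes were lower, with *Csn1s1* and *Wap* at 0 reads in every mouse and *Csn2* at 0.0973 or lower, these 3 named after their values were seen.

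Of the regulators of epithelial genes, 6 of 13 passed the filter and 0 the FDR. *Foxa1*, a pioneer factor of luminal cells, was at 10.3, 0.681 and 1.01 in Wt mice versus 0.210, 0 and 0 in mutant mice. Every mutant mouse was below every Wt mouse, as for *Epcam*. *Elf5*, the alveolar regulator, named after its values were seen, had too few reads for the filter and was at 4.02, 0.195 and 0.295 in Wt mice versus 0.105, 0 and 0 in mutant mice. *Ehf* was at 4.78 to 8.03 in Wt mice versus 0.419, 3.63 and 3.46 in mutant mice. Its lowest mouse, mutant mouse 1, was also the mouse with lymphocyte genes near 0, and the part of lymphocytes in these values was not tested. *St14*, *Pkp3*, *Dsg2* and *Tjp3* were likewise lowest in that mouse, at 0.681, 0.681, 0.210 and 0.157, against at least 2.81 in the other mice.

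Keratins outside the set were read beside it. *Krt19*, a type I keratin of ducts and mesothelium, was at 28.5, 2.72 and 2.94 in Wt mice versus 8.86, 3.95 and 4.91 in mutant mice. *Krt7* was at 7.46, 0.729 and 1.47 in Wt mice versus 5.61, 3.59 and 3.70 in mutant mice. For both, Wt mouse 1 was highest and every mutant mouse was above Wt mice 2 and 3. Without Wt mouse 1, *Krt7* was higher in mutant mice by limma (difference 1.60, SE 0.30, adjusted p = 0.0484), and so were the 8 mesothelial genes. The regulator *Ovol1*, with 0 reads in Wt mice 2 and 3 and 0.449 to 0.681 in mutant mice, passed as well in that fit, in which 4.85% of all genes were called. *Krt15*, a basal keratin below the filter, was at 11.04 in mutant mouse 2 and at 0.157 or lower in the other mice.

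Cornified epidermis genes were measured beside the basal keratins. *Krt1*, the partner of keratin 10, was at 8.53 in mutant mouse 2 and at 0.157 or lower elsewhere, and *Lor*, which encodes loricrin, was at 6.46 and at 0.314 or lower. Both were below the filter and were named after their values were seen. *Krtdap* was at 11.8 in mutant mouse 2 and at 1.60 to 4.24 elsewhere. The hair keratins *Krt25* and *Krt71*, named after their values were seen as well, had 0 reads in every mouse. In Wt mouse 1, in contrast, *Krt1* was at 0.0419, *Lor* at 0 reads and *Krtdap* at 1.97. The part of skin in the *Krt5* and *Krt14* values was not tested.

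**Figure D4:**
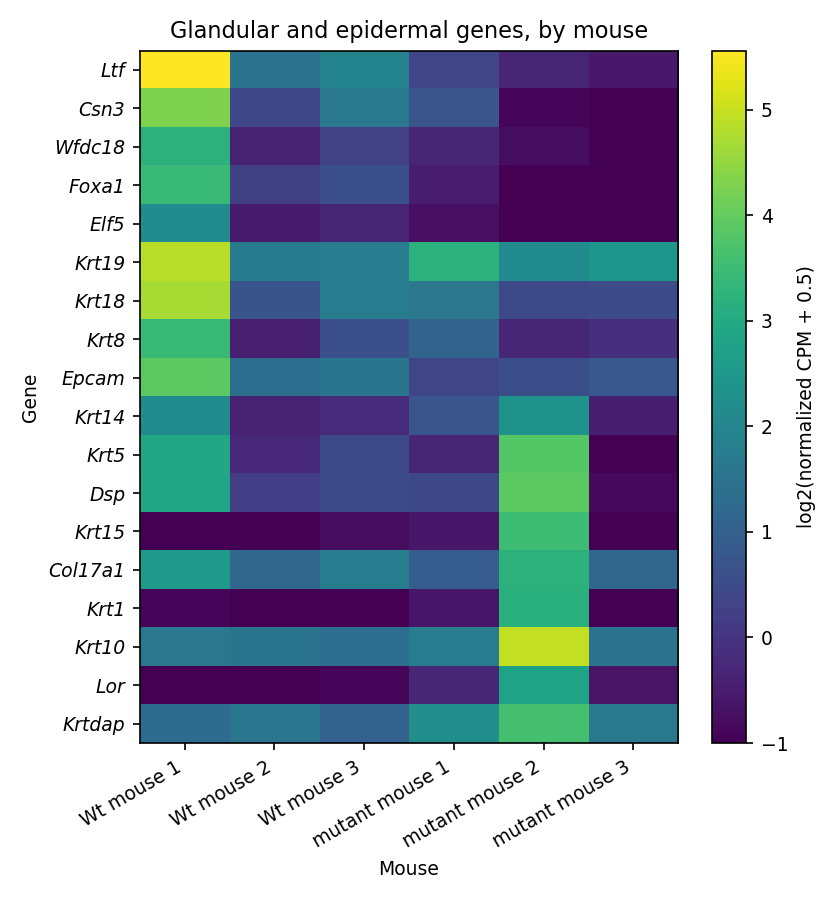
Colour gives log2(normalized CPM + 0.5) of glandular and epidermal genes (rows) in each mouse (columns), from -1 at 0 reads. *Ltf*, *Csn3*, *Foxa1*, *Krt18*, *Krt8* and *Epcam* are brightest in Wt mouse 1, and *Krt15*, *Krt1*, *Krt10* and *Lor* are brightest in mutant mouse 2.

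Smooth muscle genes are also used by the myoepithelial cells of glands, and the excess of Wt mouse 1 exceeded 2 for 0 of the 4 listed. *Acta2* was at 114, 64.8 and 80.1 in Wt mice versus 142, 177 and 126 in mutant mice, and 0 of the 4 genes passed the FDR (1 at an unadjusted p under 0.05 by limma). Without Wt mouse 1, *Acta2* was higher in mutant mice (difference 1.02, SE 0.18, adjusted p = 0.0381 by limma). The oxytocin receptor gene *Oxtr* was highest in mutant mouse 2, at 42.1, and was at 12.2 to 25.3 in the other mice. Of 8 repressors of epithelial genes and mesenchymal genes, 0 passed the FDR (2 at an unadjusted p under 0.05 by limma). The latter were *Zeb2*, at 285.9, 283.3 and 239.6 in Wt mice versus 418.2, 331.8 and 319.8 in mutant mice (difference 0.40, SE 0.14, adjusted p = 0.142 by limma and 0.0331 by DESeq2), and *Twist2*, with a difference of -0.60 (SE 0.19, adjusted p = 0.123 by limma and 0.0771 by DESeq2). For both, the genotypes did not overlap. The E-cadherin repressor *Zeb1* was at 80.4 to 91.0 over the 6 mice.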

How the data were processed

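RNA-seq values of inguinal fat from 3 mutant and 3 Wt mice were used, with genotype and mouse number taken from the labels. Per gene the deposited files hold a normalized signal (CPM with a factor for each mouse). The submitters' processing notes name Bowtie2 2.1.0, RSEM 1.2.15, edgeR and mm10, and the strand setting is not given in the sources used here. Values were whole multiples of 1 read (100% within 0.02 reads), and dividing gave the reads, with a floor of 3 reads that covers counting error only. Near-identical copies were not separated, and 27 symbols read as dates.

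Genotypes were compared by limma 3.58.1 with trend (R 4.3.3) on log2(value + 0.5), with Benjamini-Hochberg adjustment over the 16868 genes kept by filterByExpr of edgeR 4.0.16. The fit was tested on simulated counts with the same dispersion (spread beyond counting error) for every gene and no outlying mouse. That setting does not cover markers with 1 high mouse. Alternatives were edgeR's and DESeq2's (1.42.0) tests on the reads, other scalings, pseudocounts and filters, a replicate block and each mouse left out. The fit without both Wt mouse 1 and mutant mouse 2, and the 2 measures of mutant mouse 2 against mutant mice 1 and 3, were added after seeing the data. Members and lists were chosen with earlier results of these data known. Genes named are the 9 markers, up to 4 detected genes with the highest mean and any past the FDR in each list, and the 10 genes nearest to *Epcam*, and others are said to be named after their values were seen or are those an alternative called. Coordinates and exon lengths are those of GENCODE M21 (GRCm38). Exons of *Krt5*, *Krt8* and *Cldn3* overlap a gene on the other strand by 129, 101 and 40 bases, each at a mean value of 0.167 or lower. Protein sequences were not used here.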

Additional observations from a re-analysis of the deposited data

How the results depend on the processing

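None of the 9 markers passed the FDR under any setting except DESeq2's Wald test (1, *Epcam*). Over all genes, 1368 passed by limma, 2118 by DESeq2, 598 with at least 10 reads in every mouse, 545 to 1043 with a mouse left out and 69 without both Wt mouse 1 and mutant mouse 2. With library size as the only scaling 1019 were higher and 265 lower, against 928 and 440. Of the other epithelial genes, 1 passed by limma, 6 by DESeq2, 2 without a filter, 0 to 3 with a mouse left out and 0 without both mice. The median difference of the 8 markers was -0.72, from -1.31 to 0.10 with a mouse left out and -1.44 by edgeR. The sign of the difference turned for *Krt5*, *Krt14* and *Trp63* under 5, 3 and 3 settings and for *Krt8* and *Cldn3* under 2 each. The median excess of Wt mouse 1 was 2.48, and 2.98 with a pseudocount of 0.1.

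With the mouse number as a block, 4063 genes, 8 other epithelial genes and 0 markers passed. Deviations of same-numbered mice correlated at 0.686, 0.057 and 0.560. For Wt mice 1 and 3 the same-numbered mutant mouse was the nearest, whereas Wt mouse 2 was nearest to mutant mouse 3 (0.332). The labels give only the number, and whether it stands for a pairing or batch was not tested. Where 1 mouse holds most of the reads of a marker, 3 mice per genotype give a wide spread, and markers under 10 reads in a mouse cannot resolve small differences.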
